A study of Mus musculus with 36 samples.

Results

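The acyl-CoA thioesterases described here are 9 genes, Acot1, Acot2, Acot3, Acot4, Acot5, Acot7, Acot8, Acot9 and Acot12, of the 19750 genes named on the array. A probe was assigned to a member when its gene name in the scanner files, or the current symbol of its accession, was that of the member, which gave 10 probes. The authors' table of expressed spots holds 9 of these probes and 8 of the genes, of 13042 genes in all. Acot5 is not in that table and is described from the scanner signals.

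Liver RNA of 36 adult male C57BL/6J mice was measured, with 12 mice in each of 3 groups, and every mouse ate the same mild-high-fat diet in which 30% of the energy was fat. The baseline (t=0) mice were killed directly after an adaptation period, which lasted 3 weeks by the sample labels and a shorter time by the study's methods, and the methods name the substrain C57BL/6JOlaHsd. The control (HF) mice stayed on the diet for 12 more weeks, and the quercetin (HF-Q) mice ate it for the same 12 weeks with 0.33% (w/w) quercetin, a flavonol of plant foods. All mice had been without food for at least 2 hours. Baseline mice were killed 12 weeks earlier, so age and time on the diet cannot be told apart in any comparison with t=0. Each array carried the Cy5-labelled RNA of 1 liver and a Cy3-labelled pool made from all samples.

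Acyl-CoA thioesterases split an acyl-CoA into the free fatty acid and coenzyme A, and so set how much of each acyl-CoA a compartment of the cell holds. The family has members in the cytosol, the mitochondrion and the peroxisome, which differ in the acyl chains they prefer. Acot1 to Acot6 are closely related α/β-hydrolases, whereas Acot7, Acot8, Acot9 and Acot12 belong to an unrelated structural group. In the liver several of them are known targets of the fatty acid receptor PPAR-alpha and rise on fasting. The dicarboxylic acids formed by ω-oxidation are shortened in the peroxisome, where Acot3, Acot4, Acot5 and Acot8 act.

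Levels are the authors' log2 values of the Cy5 signal set against Cy3, and a higher value means more RNA. A gene was called when its adjusted p-value (limma, two-sided, Benjamini-Hochberg over the 21781 probes of the table) was under 0.05, and a gene with several probes is represented by its brightest. Levels are compared between groups and not between genes, because probes differ in brightness. The array of quercetin replicate 2 stood apart: 96.7% of its spots were well above background in Cy5, against 56.4% to 67.4% on the other 35 arrays. In whole liver, a lower level can be fewer cells of a type or less RNA per cell, and these cannot be told apart. The 7 measured hepatocyte markers were bright in every group: their summed level was 19.67 to 20.44 (log2) at t=0, 19.90 to 20.39 in control and 19.82 to 20.62 in quercetin livers.

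**Figure D1:**
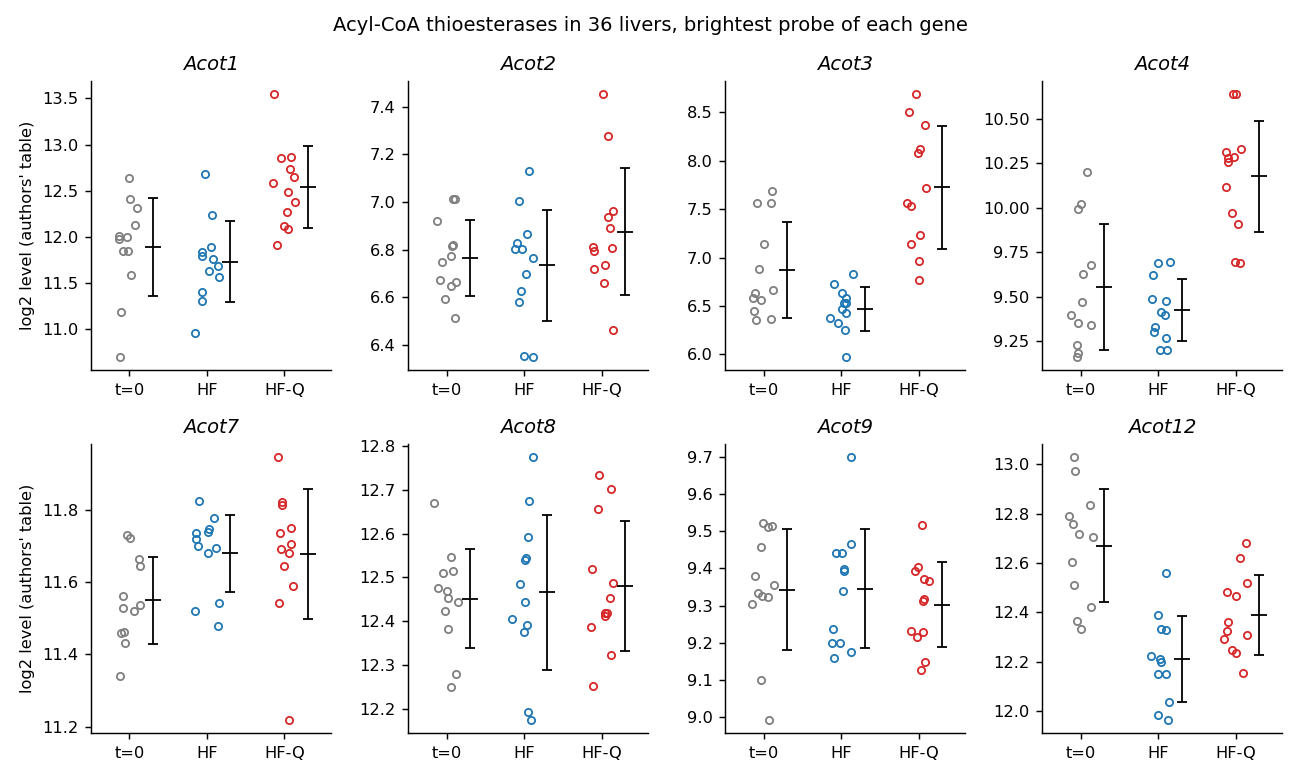
Log2 level of the 8 measured thioesterase genes (y axis, authors' values, brightest probe, own scale for each gene) in the t=0, HF and HF-Q groups. Open circles are single livers, 12 in each group, and the bar beside them is the mean with its SD. All 12 quercetin livers lie above the control median for Acot1, Acot3 and Acot4.

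Quercetin livers held more RNA of Acot1, Acot3 and Acot4 than control livers, by 1.76-fold, 2.38-fold and 1.68-fold. No member was called lower. The 3 called genes of 8 tested compare with 2.24% of all genes called in this comparison, 1.16% of them higher and 1.08% lower. The median difference was 0.16 over the 8 members and -0.0046 over all genes.

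Acot3, a peroxisomal thioesterase, had the largest difference of the 8 genes in the authors' values, whereas with normexp and loess Acot1 was larger, at 0.82 against 0.67. Its log2 level ran from 5.97 to 6.83 in control livers with a median of 6.50, and from 6.76 to 8.69 in quercetin livers with a median of 7.64. Of the 12 quercetin livers, 11 lay above the highest control liver, and the groups overlapped only there. The mean difference was 1.25 ± 0.18 (SE, 12 mice per group; limma adjusted p = 0.000398), and it was positive on all 9 slides, from 0.27 to 2.22. The spread between livers was wider with quercetin, with an SD of 0.63 against 0.23 in control. The spot is dim: Acot3 was well above background on 9 of 12 baseline, 8 of 12 control and 12 of 12 quercetin arrays. Its Cy5 signal was 2.44, 1.88 and 4.92 times the background in the t=0, HF and HF-Q groups. The control value lay under 2 times the background, the authors' limit for a spot's mean signal. The size of the difference depended on the processing. It was 0.67 with normexp and loess on the scanner signals and 2.19 with the processed signals of the scanner software. Acot3 was called with both (adjusted p = 0.00163 and 0.00112).

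Acot4 lies beside Acot3 on chromosome 12 and encodes a peroxisomal enzyme that acts on succinyl-CoA and other dicarboxylyl-CoAs. The control livers read 9.20 to 9.69 with a median of 9.41, and the quercetin livers 9.69 to 10.64 with a median of 10.27. The ranges met at a single quercetin liver, and the other 11 were above every control liver. The difference was 0.75 ± 0.10 (SE; adjusted p = 0.000204) and was positive on all 9 slides. The second probe for Acot4 moved likewise, by 0.58 ± 0.09 (SE; adjusted p = 0.00051).

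Acot1, the cytosolic enzyme for long-chain acyl-CoA, was bright in all livers. Its level was 10.96 to 12.68 in control livers with a median of 11.72, and 11.91 to 13.55 in quercetin livers with a median of 12.53. The groups overlapped, since 4 quercetin livers exceeded the highest control liver, while 10 control livers fell below the lowest quercetin liver. The difference was 0.81 ± 0.17 (SE; adjusted p = 0.00736), again positive on all 9 slides.

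The mitochondrial and the remaining peroxisomal members did not pass the test. Acot2, the mitochondrial relative of Acot1, differed by 0.14 (95% interval -0.06 to 0.34), and its spot was dim, at 2.05, 2.32 and 2.49 times the background in the t=0, HF and HF-Q groups. Acot8, a peroxisomal enzyme of broad chain length, differed by 0.01 (-0.12 to 0.15). Acot9, another mitochondrial member, differed by -0.04 (-0.17 to 0.08). The intervals of Acot8 and Acot9 leave out a change of the size seen for Acot4. That of Acot2 does so in the authors' values, and with normexp and loess its difference was 0.03 ± 0.05 (SE). For so dim a spot the size depended on the processing, and it was 0.31 with the processed signals of the scanner software. The Acot2 interval therefore cannot settle whether its RNA changed by that much.

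Acot7 and Acot12 are cytosolic. Acot7, best known from neurons, differed by 0.00 (-0.13 to 0.13). Acot12, which cleaves acetyl-CoA and is mainly a liver enzyme, was 0.18 higher in quercetin livers (0.04 to 0.32; adjusted p = 0.187), with 11 of 12 above the control median. It was called with normexp and loess (0.22, adjusted p = 0.0293) and after quantile normalization (0.21, adjusted p = 0.0472), and not with slide as a block (0.17, adjusted p = 0.358) or with the Arntl level as a covariate (0.05, adjusted p = 0.866).

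Acot5, the third peroxisomal enzyme of the chromosome 12 group, had a spot at the background. It was well above background in Cy5 on 1 of 12 baseline, 0 of 12 control and 3 of 12 quercetin arrays. Its highest signal, 12.1 times the background, was on the bright array of quercetin replicate 2, and the other 35 arrays read 1.13 to 1.92 times the background. The log2 ratio of the spot differed by 0.03 between quercetin and control (adjusted p = 0.869, limma over all probes of the array), and no fold change can be given for a spot at this level.

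**Figure D2:**
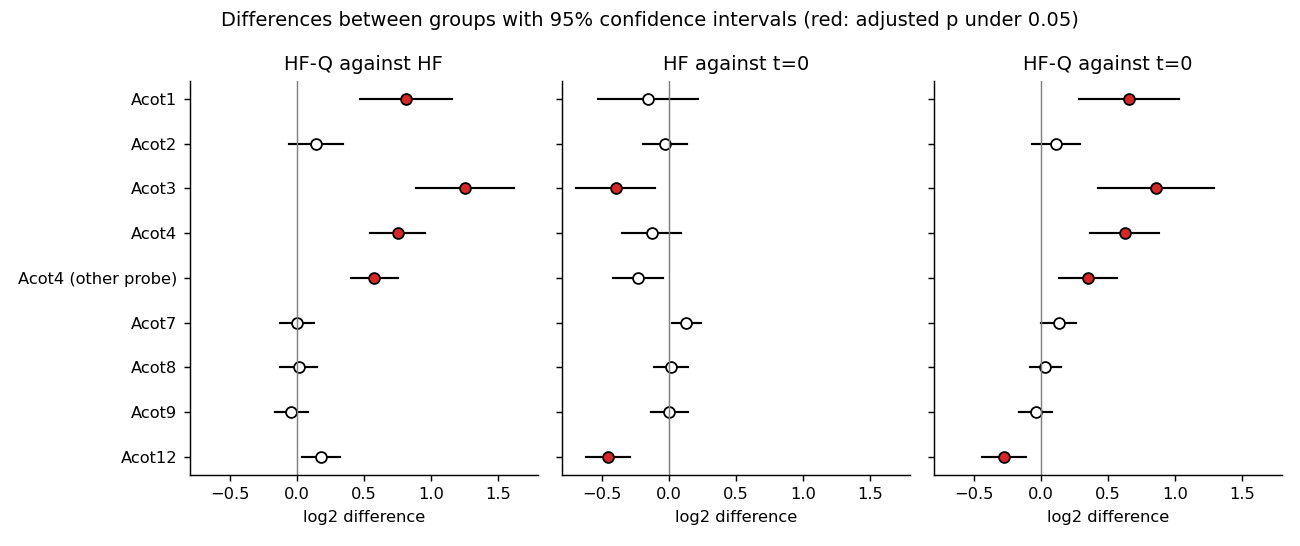
Log2 difference of each thioesterase probe (x axis) with its 95% confidence interval, for HF-Q against HF, HF against t=0 and HF-Q against t=0. Filled red points passed an adjusted p of 0.05 over all probes, and Acot4 has 2 probes. Acot1, Acot3 and Acot4 lie to the right of 0 in both comparisons with quercetin, and Acot12 to the left of 0 in both comparisons with t=0.

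The quercetin comparison moved together with the circadian clock. Arntl, a core activator of the clock, was 1.00 ± 0.19 (SE) lower in quercetin than in control livers (adjusted p = 0.0034), and Dbp, a clock output gene, was 0.92 ± 0.19 higher (adjusted p = 0.00741). Among the 14 measured clock genes, 7 were called, 5 higher and 2 lower, with a median difference of 0.36, where 2.24% of all genes were called. Against baseline, 3 of the 14 were called in control livers (1 higher and 2 lower, median -0.25), which is near the 21.1% of all genes called there. Arntl was 0.61 higher in that comparison (limma adjusted p = 0.0695). In quercetin livers 0 of the 14 were called by limma against baseline (median 0.14), beside 12.8% of all genes. With the Arntl level as a covariate the differences were 0.89 for Acot1, 0.94 for Acot3 and 0.54 for Acot4, with adjusted p of 0.146, 0.146 and 0.13, and 0 members were called. In that fit 1 of the 21781 probes was called, against 513 without the covariate. Against baseline, where Arntl itself did not pass (-0.39, adjusted p = 0.338), the 4 members called in quercetin livers were called with the covariate too, with 0.65 for Acot1, 0.69 for Acot3, 0.51 for Acot4 and -0.34 for Acot12. Between livers of the same group, Arntl had r = -0.48 with Acot3, -0.55 with Acot4, -0.49 with Acot12 and 0.02 with Acot1 (36 livers, group means taken off). The time of death is not in the sample labels, and the part of the clock in these differences was not tested beyond these values.

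Acot3 and Acot4 are neighbours in a row of 6 related genes on chromosome 12, in the order Acot2, Acot1, Acot4, Acot3, Acot5 and Acot6. The array probes, 60 bases each, lie in the mouse build mm8 at chr12:84948386-84948445 for Acot3, chr12:84933619-84933678 and chr12:84932960-84933019 for Acot4, and chr12:84907250-84907309 for Acot1. How far these probes can tell the related genes apart was not tested. The promoters of the 3 genes higher with quercetin are shown so that the neighbours can be compared. They are RefSeq windows of build GRCm38.p6, plus strand, from 250 bases before to 50 bases after the start, at chr12:84009252-84009551 for Acot1, chr12:84051894-84052193 for Acot3 (the first of its entries) and chr12:84038129-84038428 for Acot4. All 9 members have such an entry. Capitals mark 5 motifs searched on both strands: AGGTCA, the half-site of nuclear receptors, a direct repeat of such half-sites with 1 base between (the kind of element PPAR-alpha binds, with some bases left free), CACGTG, an E-box, TATAAA and CCAAT.
Acot1: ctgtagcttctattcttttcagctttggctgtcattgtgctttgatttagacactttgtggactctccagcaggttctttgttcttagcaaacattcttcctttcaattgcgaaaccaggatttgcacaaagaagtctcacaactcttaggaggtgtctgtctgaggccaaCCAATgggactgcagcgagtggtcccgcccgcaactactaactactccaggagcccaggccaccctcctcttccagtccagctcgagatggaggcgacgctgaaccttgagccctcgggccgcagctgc
Acot3: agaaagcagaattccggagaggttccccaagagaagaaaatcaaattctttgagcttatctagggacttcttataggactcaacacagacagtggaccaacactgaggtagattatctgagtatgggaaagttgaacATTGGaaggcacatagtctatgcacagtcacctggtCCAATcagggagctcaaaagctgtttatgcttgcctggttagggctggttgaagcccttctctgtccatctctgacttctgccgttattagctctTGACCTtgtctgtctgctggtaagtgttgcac
Acot4: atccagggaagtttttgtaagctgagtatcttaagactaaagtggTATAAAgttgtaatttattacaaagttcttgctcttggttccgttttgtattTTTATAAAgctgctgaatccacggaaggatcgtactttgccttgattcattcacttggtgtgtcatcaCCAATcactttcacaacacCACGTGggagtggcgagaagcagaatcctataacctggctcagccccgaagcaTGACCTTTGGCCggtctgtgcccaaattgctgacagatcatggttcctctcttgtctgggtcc
The Acot4 window holds AGGTCA within the direct repeat on the opposite strand, 13 bases before the start, and CACGTG 66 bases before it. The Acot3 window holds AGGTCA on the opposite strand, 19 bases into the transcript, and neither the direct repeat nor the E-box. The Acot1 window holds only CCAAT of the motifs searched. Among all 32851 windows of this length, AGGTCA was in 16.3%, the direct repeat in 0.801%, CACGTG in 7.15%, TATAAA in 13.6% and CCAAT in 37.4%. AGGTCA was also in the windows of Acot5 and Acot12, so in 4 of 9 members. The longest run shared by a pair of the 9 windows was 7 to 10 bases, with a median of 8 over 36 pairs. A match of letters is no evidence of a bound factor.

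After 12 more weeks of diet, control livers held less RNA of Acot12 and of Acot3 than baseline livers, and no member was called higher. The 2 called genes of 8 compare with 21.1% of all genes called in this comparison, 13.4% higher and 7.72% lower. The median difference was -0.08 over the members and 0.02 over all genes.

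Acot12 read 12.33 to 13.03 at baseline with a median of 12.71, and 11.97 to 12.56 in control livers with a median of 12.21. All 12 control livers lay below the baseline median, and 9 lay below the lowest baseline liver. It was 1.37-fold lower, a difference of -0.46 ± 0.08 (SE; adjusted p = 0.000237), negative on all 9 slides. It was called under each of the 14 other settings and with each of the 24 arrays left out. Of the 7 hepatocyte markers 2 were called lower in the same comparison, Cyp2e1 (-0.36, adjusted p = 0.0156) and Cps1 (-0.32, adjusted p = 0.0184), while 4 differences were positive and the median was 0.03. Of the 5 bile duct markers 3 were called higher, with a median of 0.29, and the 8 Kupffer cell markers had positive differences with a median of 0.29 and 0 called. Among all genes 13.4% were called higher and 7.72% lower. The part of these cells in the Acot12 and Acot3 differences was not tested.

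Acot3 was less firm here. Baseline livers read 6.35 to 7.68 with a median of 6.65, of which 3 (replicates 1, 7 and 12) were at 7.57 or above, and every control liver was below those 3. The difference was -0.40 ± 0.15 (SE; adjusted p = 0.0489). The call was lost under 10 of the 14 other settings and on leaving out 16 of the 24 arrays in turn, where the adjusted p ran from 0.0309 to 0.087. The call held only without baseline replicate 2, 3, 4, 5, 6 or 9 or control replicate 1 or 3. With the Arntl level as a covariate it was -0.18 (adjusted p = 0.349), and Acot7 was then called at 0.16 (adjusted p = 0.0489). Acot4 showed the same 3 high baseline livers, from 9.99 to 10.20, and differed by -0.13 (adjusted p = 0.392), with -0.23 for its second probe (adjusted p = 0.0691).

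The other members differed little between control and baseline. Acot7 was 0.13 higher (95% interval 0.02 to 0.23; adjusted p = 0.0713). Acot1 differed by -0.16 (-0.53 to 0.21), Acot2 by -0.03 (-0.19 to 0.13), Acot8 by 0.01 (-0.11 to 0.14) and Acot9 by 0.00 (-0.13 to 0.14). Acot8 and Acot9 changed sign under other scalings, with normexp and loess values of -0.04 and -0.01.

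Quercetin livers compared with the same baseline livers were higher for Acot1, Acot3 and Acot4 and lower for Acot12. This comparison shares its baseline arrays with the one above and its quercetin arrays with the first, so the values stand side by side and are not independent. The 4 called genes of 8 compare with 12.8% of all genes, 7.45% higher and 5.39% lower. The median difference was 0.12 over the members and 0.02 over all genes.

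The peroxisomal pair was higher than at baseline as well as higher than in control livers. Acot3 was 0.85 ± 0.21 higher (SE; adjusted p = 0.00904), and Acot4 0.62 ± 0.13 higher (adjusted p = 0.00213) with 0.35 ± 0.11 for its second probe (adjusted p = 0.0318). All 12 quercetin livers exceeded the baseline median for Acot3 and for Acot4. The groups overlapped, with 6 quercetin livers above every baseline liver for Acot3 and 7 for Acot4. With normexp and loess Acot3 differed by 0.41, which was called among the probes of the table (adjusted p = 0.0354) and not over all probes of the array (adjusted p = 0.0528). With the processed signals of the scanner software Acot3 differed by 1.81. With normexp and loess over all probes of the array, the brightest Acot4 probe differed by 0.51 (limma adjusted p = 0.00229). The second Acot4 probe differed by 0.21 there and was not called (adjusted p = 0.18).

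Acot1 read 10.70 to 12.64 at baseline with a median of 11.99, and was 0.65 ± 0.18 higher with quercetin (SE; adjusted p = 0.0198), with 11 of 12 livers above the baseline median. Acot12 was 0.28 lower than at baseline on the log2 scale, at 12.15 to 12.68 with a median of 12.34 in quercetin livers, a difference of -0.28 ± 0.08 (adjusted p = 0.0204). All 12 quercetin livers were below the baseline median, and the difference was negative on all 9 slides. Of the 7 hepatocyte markers, Cps1 (-0.45, limma adjusted p = 0.00294) and Ttr (-0.33, adjusted p = 0.0377) were called lower in this comparison, beside 5.39% of all genes. The median over the list was -0.01, and the part of these markers was not tested. Acot7 was 0.13 higher (adjusted p = 0.198), and Acot2, Acot8 and Acot9 differed by 0.11, 0.03 and -0.04.

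Between livers of the same group, Acot3 and Acot4 varied together. Their correlation over 12 livers was r = 0.98 at t=0 (Spearman's rho 0.95) and r = 0.95 in quercetin livers (rho 0.93). Both passed the permutation test, with p = 1e-05, the smallest that 100000 permutations can give, at t=0 and p = 2e-05 with quercetin, and with adjusted p = 0.00084 for each over 84 tests. In control livers, where the levels spanned the narrowest range, r was 0.65 (rho 0.62, permutation p = 0.019, adjusted p = 0.138). Without the 2 livers farthest from the median of Acot3, r was 0.96 at t=0, 0.39 in control and 0.91 in quercetin livers.

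The 3 high baseline livers were high for both genes, and over the remaining 9 baseline livers, a choice made after seeing the values, r was 0.92. After slide was taken off as a block, r was 0.96 at t=0 and 0.88 with quercetin. A slide holds at most 2 arrays of a group, too few for a value within a slide. With log2 ratios of the scanner signals (normexp and loess) the quercetin value was 0.73 and no longer passed (adjusted p = 0.215), while the baseline value was 0.94 (adjusted p = 0.0101). The 2 probes of Acot4 had r = 0.95 at t=0, 0.33 in control and 0.88 with quercetin.

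Acot1 and Acot8 formed the other pair that passed. Their r was 0.83 in control livers (rho 0.73, permutation p = 0.001, adjusted p = 0.028), 0.70 at t=0 (adjusted p = 0.138) and 0.72 with quercetin (adjusted p = 0.104). The relation in control livers fell to 0.60 without the 2 livers farthest from the median of Acot1, and to 0.70 with normexp and loess ratios (adjusted p = 0.282), so it rests in part on those livers. The rank correlation did not pass (adjusted p = 0.179).

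The remaining pairs did not pass by Pearson's r in any group. By rank, Acot1 with Acot12 passed in control livers (rho 0.87, permutation adjusted p = 0.0148; r = 0.73, adjusted p = 0.104). Over the 28 pairs of the 8 genes in 3 groups, 3 of 84 tests passed and 14 had an unadjusted p under 0.05. The r was positive in 19 pairs at t=0, 16 in control and 21 in quercetin livers, with medians of 0.29, 0.16 and 0.36. Over the 36 livers with group means taken off, Acot7 had r from -0.20 to -0.05 with the 7 other genes. These pooled values cover opposite signs by group: Acot7 had r = 0.66 with Acot3 and 0.69 with Acot4 at t=0 (adjusted p = 0.138 for both), -0.20 and -0.24 in control, and -0.42 and -0.54 with quercetin. The pooled r of Acot2 lay between -0.20 and 0.08.

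**Figure D3:**
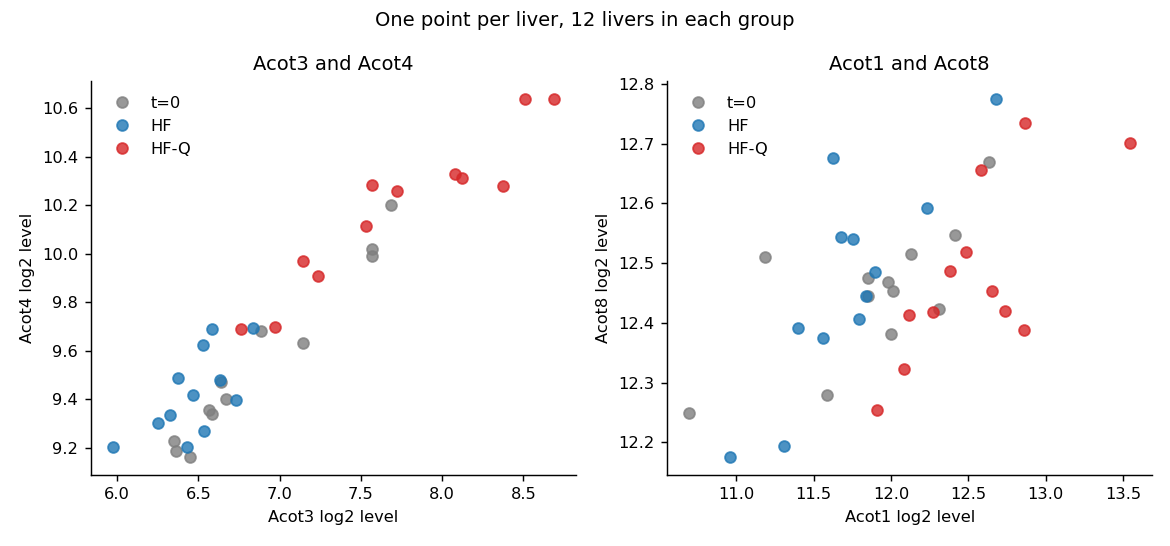
Log2 level of Acot4 against Acot3 (left) and of Acot8 against Acot1 (right), each point a liver, coloured by group. For Acot3 and Acot4 the 3 groups lie along a single band, and 3 baseline livers fall among the quercetin livers.

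**Figure D4:**
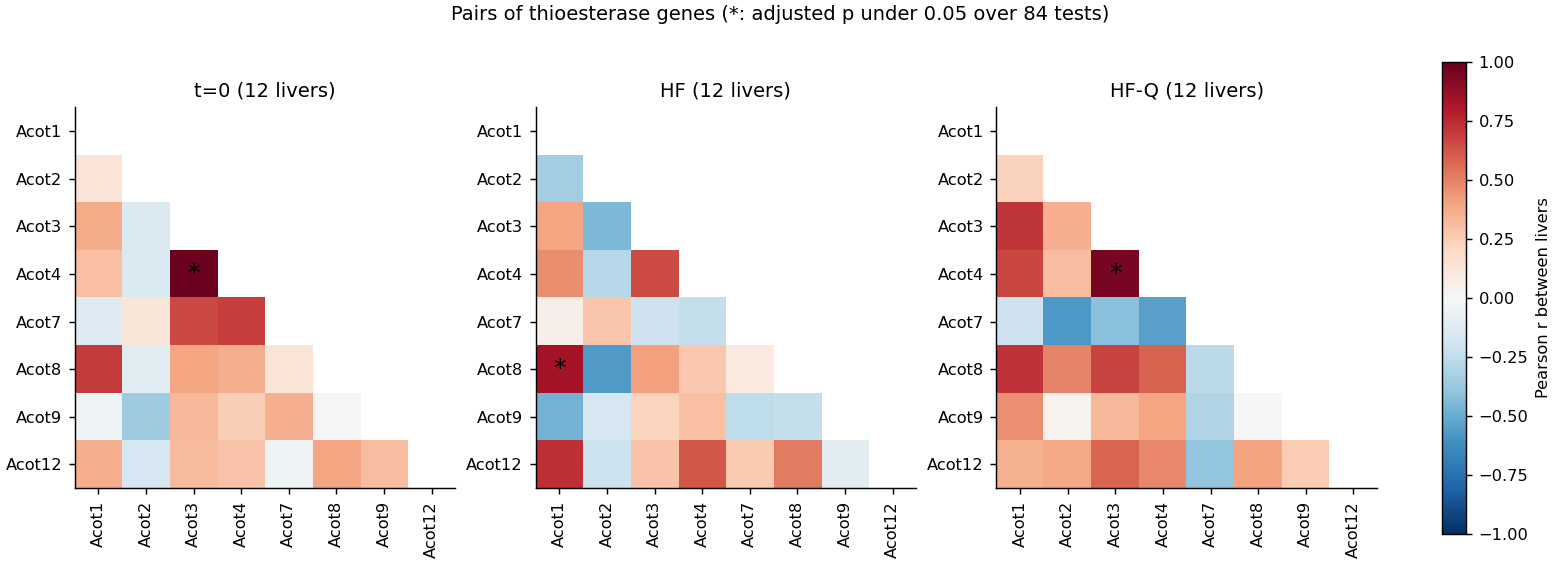
Pearson r between livers for each pair of the 8 thioesterase genes, within the t=0, HF and HF-Q groups of 12 livers; colour runs from blue (-1) to red (1) and stars mark an adjusted p under 0.05 over 84 tests. Stars stand at Acot3 with Acot4 at t=0 and HF-Q, and at Acot1 with Acot8 in HF.

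For each member the 3 genes most like it were sought among 13034 other genes, by Pearson r over the 36 livers after each group's mean was taken off; the livers share their arrays and batches, so these values describe and have no p-value. Acot8 was most like Etfb (0.89), Cpt2 (0.86) and Acadvl (0.84), 3 mitochondrial proteins of fatty acid oxidation. Acot12 was most like Tm9sf2 (0.85), Mtmr1 (0.77) and Acadm (0.76), of which Acadm is the medium-chain acyl-CoA dehydrogenase. Acot1 was most like Abcb4 (0.80), the phospholipid transporter of the bile canaliculus, Tlcd4 (0.79) and Hsdl2 (0.78), a peroxisomal dehydrogenase.

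Acot3 and Acot4 shared neighbours in this ranking. Acot3 was most like Ak4 (0.71), Bnip3 (0.66) and Plscr2 (0.66), and Acot4 was most like Trim24 (0.74), Ak4 (0.73) and Bnip3 (0.72). Both are far below the 0.92 that Acot3 had with Acot4 on the same scale. Acot2 and Acot9 had the lowest highest values of the members. The 3 genes most like Acot2 (Pgf, Ankrd2 and Chrm1) had 0.65 to 0.67, and those most like Acot9 (Ctla2b, Phf11d and Cyp51) had 0.66 to 0.68. Those most like Acot7 were Hes6 (0.76), Klc4 (0.73) and Mtfp1 (0.72).

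The receptor Ppara itself did not pass in any comparison, with differences of 0.02, -0.04 and -0.02. Within groups its level had r = 0.63 with Acot3, 0.65 with Acot4, 0.54 with Acot8 and 0.47 with Acot1 over the 36 livers. For the other members r was 0.39 with Acot12, -0.0033 with Acot9, -0.11 with Acot7 and -0.32 with Acot2. Cyp4a14, an ω-hydroxylase, had r of 0.32 with Acot1, 0.32 with Acot3 and 0.33 with Acot4 on this scale, although all 4 genes rose with quercetin. Cpt1a, the entry step of mitochondrial oxidation, had its highest r of the 8 members with Acot12, at 0.69.

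Lists of related genes were set beside the members. Of 13 other thioesterases in the table (16 listed), 0 were called by limma between quercetin and control (2.24% of all genes), with a median difference of -0.01 and a range from -0.24 to 0.44. The highest, named after its value was seen, was Acot6, the last gene of the chromosome 12 row, at 0.44 ± 0.29 (SE; adjusted p = 0.481). Against baseline, the thioesterase-bearing Fasn of fatty acid synthesis was 0.84 higher in control livers (adjusted p = 0.0106), the bile acid conjugating enzyme Baat was 0.19 higher (adjusted p = 0.0207) and the mitochondrial hydrolase Hibch was 0.21 lower (log2 difference -0.21, adjusted p = 0.0387). In quercetin livers Baat alone of this list was called against baseline, at 0.19 (limma adjusted p = 0.0236). The list thus had 3 of 13 called in control and 1 of 13 in quercetin livers, beside 21.1% and 12.8% of all genes.

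Enzymes that make acyl-CoA or turn over coenzyme A had 1 of 34 genes called in the quercetin comparison (2.24% of all genes). It was Vnn1, a pantetheinase and known PPAR-alpha target, at 0.69 ± 0.16 (SE, limma adjusted p = 0.0202). In control against baseline 11 of the 34 were called, 4 higher and 7 lower, beside 21.1% of all genes. The 7 lower genes include the medium-chain synthetases Acsm2 (-0.69), Acsm1 (-0.38) and Acsm3 (-0.43) and the pantothenate kinases Pank3 (-0.31) and Pank1 (-0.28). The higher genes include the acyl-CoA binding protein Dbi (0.49). In quercetin against baseline 4 of the 34 were called, beside 12.8% of all genes. Dbi was higher (0.31), and Acsm2 (-0.70), the coenzyme A pyrophosphatase Nudt7 (-0.41) and Acss2 (-0.57) were lower.

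The carnitine and peroxisomal list had 0 of 21 genes called by limma between quercetin and control (2.24% of all genes). Of the 21 differences 16 were positive, with a median of 0.14. Against baseline, control livers were lower for Cpt1a (-0.37, adjusted p = 0.00196) and Acox2 (-0.18, adjusted p = 0.0425) and higher for Acaa1b (0.27, adjusted p = 0.0434). Quercetin livers were higher for Acaa1b (0.52) and Crat (0.37) and lower for Acox3 (-0.20) and Acox2 (-0.26). Against baseline, 3 of 21 were thus called in control and 4 of 21 in quercetin livers, beside 21.1% and 12.8% of all genes. Acaa1b is the peroxisomal thiolase, and Acox2 and Acox3 are branched-chain acyl-CoA oxidases.

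Of 23 PPAR-alpha targets 3 were called with quercetin against control, all of them ω-hydroxylases: Cyp4a14 was higher by 2.74 ± 0.37 (SE; adjusted p = 0.000241), Cyp4a31 by 1.57 ± 0.28 (adjusted p = 0.00231) and Cyp4a10 by 1.31 ± 0.22 (adjusted p = 0.00172). The median of the list was 0.16, and 19 of its 23 differences were positive. The range was from -0.91 to 2.74. Its lowest gene was Fgf21, with a mean of 11.05 in control and 10.15 in quercetin livers, which was not called. In this comparison 2.24% of all genes were called. Control against baseline gave 5 called genes of 23, which is near the 21.1% of all genes called there. The list had 2 higher and 3 lower, among them Fgf21 (1.52) and Pdk4 (0.51) higher and Decr1 (-0.43) and Angptl4 (-0.63) lower. Quercetin against baseline gave 5 called genes, all higher, the same 3 Cyp4a genes with Acadvl (0.19) and Retsat (0.41). There 12.8% of all genes were called, 7.45% higher. The study's authors had named the Cyp4a genes and Acot3 from these same livers, so their direction here is not independent evidence. The paper's fold changes put Cyp4a10 above Cyp4a31, the reverse of the order here. Probes were named here by accession where possible, and whether the paper gave these probes the same names was not tested.

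**Figure D5:**
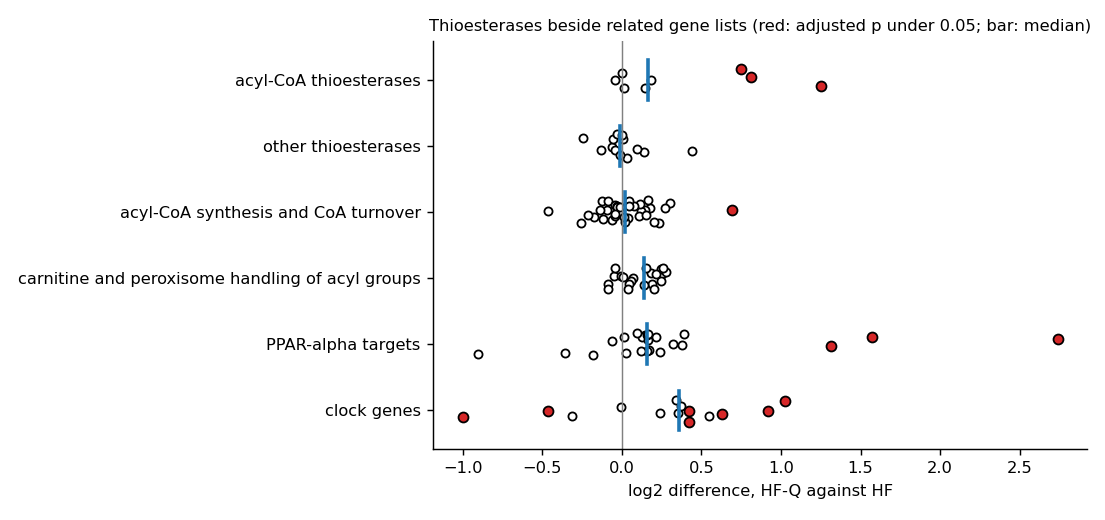
Log2 difference of HF-Q against HF (x axis) for the 8 measured thioesterase members and for 5 related gene lists (rows), each point a gene. Red points passed an adjusted p of 0.05 over all probes and the blue bar is the median of the row, 0.16 for the members and -0.01 for the other thioesterases.

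Markers of other cell types were compared between control and quercetin livers. The 8 Kupffer cell markers had summed levels of 14.96 to 16.05 in control and 14.91 to 15.74 in quercetin livers, with 0 called. Of the 5 bile duct markers 1 was called, Sox9 (-0.60, limma adjusted p = 0.00053), and of the 6 endothelial markers 1, Pecam1 (0.38, adjusted p = 0.00734). The bile duct list had 0 positive differences and a median of -0.30, and the endothelial list had 3 positive and a median of 0.01. Among all genes 2.24% were called. The summed level of 4 pancreas markers reached 21.66 in a control liver, against at most 11.79 in any quercetin liver, and with any 1 of the 24 arrays left out Acot1, Acot3 and Acot4 were each still called. The adipocyte, lymphocyte, erythroid, stellate and muscle lists had 0 genes called in this comparison. What part these cells have in the differences of the members was not tested.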

How the data were processed

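Liver RNA was hybridised to Agilent 4x44K 2-colour arrays, 4 to a slide on 9 slides, and scanned with Agilent Feature Extraction (10.5.1.1 per the submitters' processing notes). The authors deposited a table of log2 values for 23256 spots they called expressed, by the methods from a mean signal over 2 times the background. Each column has a median of 8.96, and the values matched log2 Cy5 minus log2 Cy3 plus the spot's mean log2 Cy3, centred, with a median absolute difference of 0.02. The exact normalization is not given in the sources used here. The authors also deposited the spot intensity files, which served for alternatives and for Acot5.

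Spots of a probe were averaged, giving 21781 probes. Of 41174 probes on the array, 24375 were named by accession, 6301 by current symbol and 2426 by an older symbol through RefSeq, and 8072 have no symbol. A gene was represented by its brightest probe (mean Cy5 over 36 arrays). For each comparison, limma 3.58.1 in R 4.3.3 was fitted to the 24 arrays of both groups over all probes, with Benjamini-Hochberg adjustment. Correlations within groups were tested by 100000 two-sided permutations, adjusted over 84 tests (Python 3.11.15, scipy 1.17.1). The limma fit was tested on simulated data with known changes, and the permutation test was not. Intervals are 95% confidence intervals of the difference between group means, from its limma standard error. They do not give the range of single mice, and the number of arrays limits the precision.

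All members are named. Genes of the other lists are named when called, at most 8 per list and comparison (1 such gene is not reported here), and the 3 genes most like each member by r. The members and lists were chosen with earlier results of these data known. The alternatives were other background corrections and normalizations, filters on dim spots, blocks for slide, array position and replicate number, array weights, an Arntl covariate, the methods' t-test and leaving out arrays. Same-numbered samples deviated together little: 3 or 4 of 12 pairs per comparison correlated over 0.1, with medians from -0.01 to 0.06 and a highest value of 0.36. The labels do not say whether the numbers pair mice, and these values cannot settle it. The main fits treated the groups as unpaired.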

Additional observations from a re-analysis of the deposited data

How the results depend on the processing

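Between quercetin and control livers 3 members were called in the main analysis, 3 to 4 under the other settings except that 0 were called with the Arntl level as a covariate, and 3 with any array left out. For control against baseline the 2 called members became 1 with normexp and loess (on the probes of the table and on all probes), with processed signals, with array medians set equal, after quantile normalization, in the fit of 36 arrays, with the methods' t-test and with slide or array position as a block, and 1 to 3 with an array left out. For quercetin against baseline the count was 4, with 3 to 5 under other settings and 4 to 5 with an array left out. With the replicate number as a block, 3, 2 and 4 members were called, as without it, and Acot3 in control against baseline had an adjusted p of 0.0364. The 3 correlations that passed became 1 with scanner ratios and 6 after slide was taken off. For the correlations quercetin replicate 2 alone was left out, with 3 passing in the authors' values and 1 with scanner ratios. Signs turned only where differences were small. Acot7, quercetin against control, was 0.045 with normexp and loess with or without the filter, 0.030 after quantile normalization, 0.013 with array position as a block, 0.054 with array weights, 0.057 with Arntl and 0.0070 without quercetin replicate 2. In control against baseline, Acot8 was -0.037 with normexp and loess, -0.044 with processed signals, -0.034 after quantile normalization and -0.0026 with array weights. There Acot2 was 0.023 with normexp and loess, 0.054 after quantile normalization and 0.016 with slide as a block, Acot9 was -0.0096 with normexp and loess, -0.013 with processed signals and -0.0051 after quantile normalization, and Acot4 was 0.025 with Arntl. Acot8, quercetin against baseline, was -0.027 with processed signals. The cause was not tested. Leaving out each array in turn, and the scanner ratios without quercetin replicate 2, were chosen after seeing the data. All arrays of a slide share a scan start, so a scan block is the slide block. The stricter filter left no value for Acot2. Dim spots (Acot2, Acot3 and Acot5) limit the sizes given for them.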
